A study of Rattus norvegicus and Sus scrofa and Bos taurus with 188 samples.

Results

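Translation initiation, elongation and release factors load messenger RNA onto ribosomes, find the start codon, move the ribosome along the message and free the finished protein. Their genes were described here in morulae of the pig (Sus scrofa). Members were taken from the deposited table by gene symbol, as every name that begins with EIF or EEF followed by a digit, together with the release factor genes ETF1 and GSPT1. The rule found 52 genes, in 130 transcript rows, among the 15877 gene names of the table. The rule uses names and no measured value.

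The series maps DNA methylation, histone marks and RNA in gametes and early embryos of several mammals, in 188 samples here. The table belongs to the RNA of pig embryos labelled Morula, with PG in their titles. Sister pig samples spell this mark out as parthenogenetic activation, in which an egg is started into development without sperm, so that its chromosomes would all be of maternal origin. Smart-seq2 copied the polyadenylated RNA into cDNA in 4 libraries. The deposited table holds them as 1 merged column, and no second group, genotype or treatment enters. Levels are FPKM, the fragments of a transcript scaled to its length and to all mapped fragments, and a gene's level is that of its highest transcript row.

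With 1 merged column there was no spread between replicates and no test of any difference below, and the depth of the libraries is unknown. The numbers therefore give single levels with no error. In whole embryos, fewer cells of a type and less RNA per cell cannot be told apart, and maternal stores and new transcripts of the embryo likewise cannot be told apart. Cell markers were chosen with earlier results of these data known, so their levels do not test the make-up of the samples. All 6 markers of the early embryo that were looked up (CDH1, TEAD4, SALL4, ZFP42, DPPA5 and TFAP2C) stood between 30.9 and 194 FPKM. All 8 markers of cumulus and granulosa cells, which surround the egg, lay below 1 FPKM, from FSHR, TNFAIP6 and FOXL2, listed at 0, to CYP19A1 at 0.835 FPKM (1.06 FPKM with its rows summed). Of all genes in the table, 48.8% reached 1 FPKM, so a level below it is common.

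Initiation begins when eIF2 carries the initiator tRNA to the small ribosomal subunit, helped by eIF1, eIF1A and the large scaffold eIF3. The eIF4 proteins bind the cap of the message and unwind its leader, and eIF5B joins the large subunit. Elongation factors then deliver each aminoacyl-tRNA and shift the ribosome, and release factors act at the stop codon. In eggs and cleaving embryos, where early development runs on stored messages, cap binding and eIF2 phosphorylation are well-known points of control.

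Most of these genes stood at a high level. Of the 52 members, 48 (92.3%) were at 1 FPKM or more, a level reached by 48.8% of all genes in the table. At 10 FPKM or more there were 36 members (69.2%), against 20.2% of all genes, and at 100 FPKM or more 20 members (38.5%), against 3.14% of all genes. Their median was 66.2 FPKM, whereas the median of all genes was 0.916 FPKM and that of all genes at 1 FPKM or more was 6.89 FPKM. Some 40 of the 52 lay above the last value, and 27 were among the 1000 highest genes.

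The members below 1 FPKM were 4: EEF2K at 0.666 FPKM, EIF4G3 at 0.528 FPKM, EEF1AKMT3 at 0.506 FPKM and EEF1A2 at 0.177 FPKM. Just above the threshold lay EIF4E3 at 1.30 FPKM, EIF4EBP3 at 1.39 FPKM, EIF2AK3 at 1.80 FPKM and EIF2D at 2.13 FPKM. None of the 52 was listed at 0, and none had a row in the run of 474 zeros that ends the table. With EIF4E3, EIF4EBP3, EIF2AK3 and EIF2D included, 12 members lay between 1 and 10 FPKM, 16 between 10 and 100 FPKM and 19 between 100 and 1000 FPKM. EIF1 alone was higher.

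**Figure D1:**
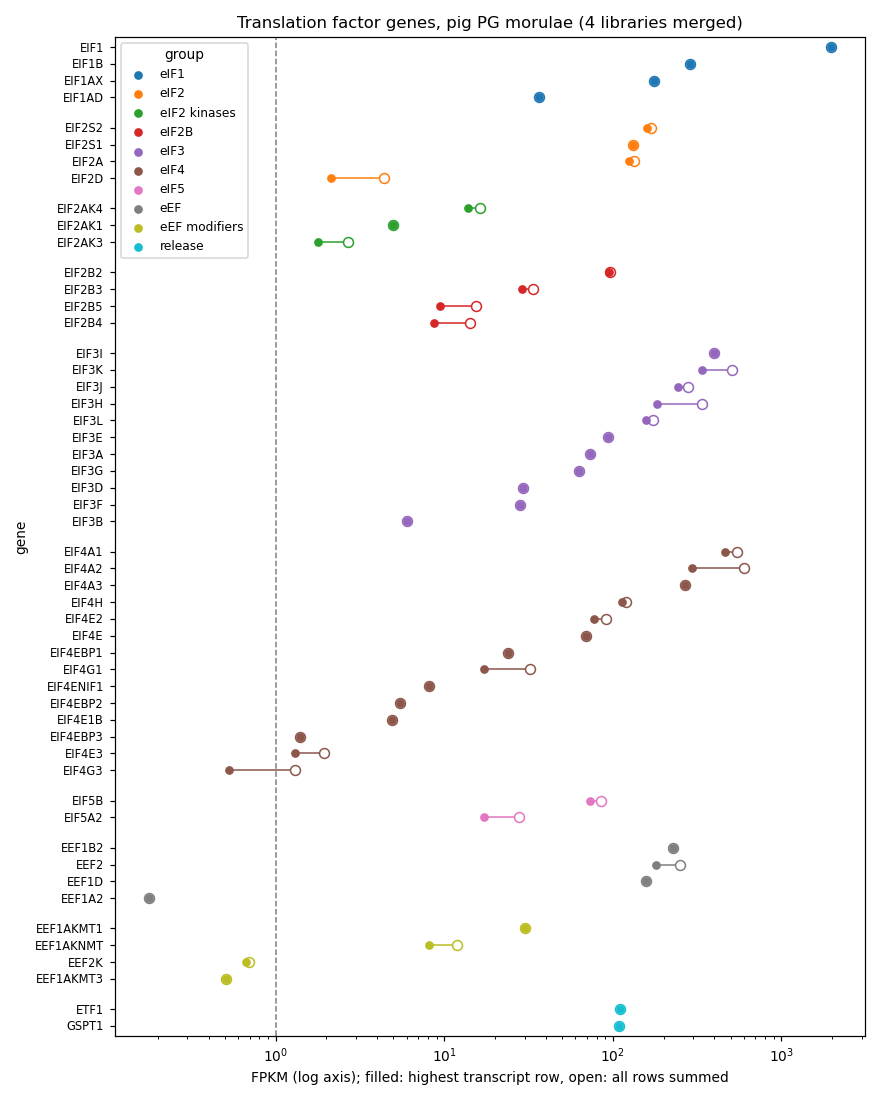
Level of each of the 52 members in FPKM on a log axis, grouped by complex, with the highest transcript row as a filled point and the sum of all rows as an open point. The dashed line marks 1 FPKM: EEF1A2, EEF1AKMT3, EIF4G3 and EEF2K have their filled points to its left, and EIF1 at 1968 FPKM stands apart at the right.

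Genes of the eIF1 group had the highest median of the groups with 3 or more members, at 231 FPKM. In this group EIF1, EIF1B and EIF1AX serve start codon selection. EIF1, which guards the accuracy of start codon choice, stood at 1968 FPKM, the 9th highest of all genes in the table (the 11th with rows summed). By highest rows it made up 28.4% of the members' total level and was 4.27 times the next member, EIF4A1. With rows summed the next member was EIF4A2 at 600 FPKM. Its close paralogue EIF1B stood at 286 FPKM, so that the EIF1 level was 6.88 times that of EIF1B. EIF1AX, the X-linked gene of eIF1A, which opens the small subunit for scanning together with eIF1, was at 175 FPKM. EIF1AD, named for a domain it shares with eIF1A, was lowest of the 4 at 36.5 FPKM. Each of these genes has 1 transcript row, so the levels carry no choice between rows. How the authors assigned reads that fit both EIF1 and EIF1B is not stated in the labels or headers.

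Both measured subunits of eIF2 were close in level. The beta subunit gene EIF2S2 stood at 159 FPKM and the alpha subunit gene EIF2S1, whose product is phosphorylated under stress, at 131 FPKM, a ratio of 1.21. The gamma subunit gene EIF2S3 was not analysed here. EIF2A, which despite its name is a separate initiator tRNA-binding protein, was at 125 FPKM. EIF2D, an unrelated factor of non-canonical initiation and reinitiation, was at 2.13 FPKM, below EIF2A by a factor of 58.7. The rows of EIF2D nearly tied, at 2.13 and 2.09 FPKM, and summed to 4.40 FPKM, which brought the factor to 30.1.

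The 3 measured kinase genes whose products phosphorylate eIF2 alpha stood at far lower levels than the gene of their substrate. EIF2AK4, the amino acid sensor known as GCN2, was highest at 13.8 FPKM. EIF2AK1, the heme-regulated kinase, stood at 5.00 FPKM, and EIF2AK3, the endoplasmic reticulum stress kinase PERK, at 1.80 FPKM. EIF2AK2, the kinase PKR that senses double-stranded RNA, was not analysed here. The eIF2 group, taken by symbol, also holds EIF2A and EIF2D. Its median exceeded that of the 3 kinases by 4.43 on the log2(FPKM + 1) scale. EIF2S1 and EIF2S2 alone had a median of 145 FPKM, against 5.00 FPKM for the kinases. Of the 10 rows of EIF2AK4 the highest held 85.3% of the summed level, and 3 further rows stood at 0.

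The exchange factor eIF2B recharges eIF2 with GTP and is the target that phosphorylated eIF2 blocks. Its 4 measured subunit genes were uneven. EIF2B2, of the regulatory part, stood at 95.5 FPKM, and EIF2B3, of the catalytic part, at 29.1 FPKM. EIF2B5, which encodes the catalytic subunit itself, was at 9.44 FPKM and EIF2B4, also regulatory, at 8.70 FPKM. The range from EIF2B2 to EIF2B4 was 11.0-fold, or 6.72-fold with rows summed. The high member and the lowest member thus both belong to the regulatory part. The median of the eIF2 group, EIF2A and EIF2D included, lay 2.87 above that of eIF2B on the log2(FPKM + 1) scale. The alpha subunit EIF2S1 was 15.1 times EIF2B4. EIF2B1 was not analysed here.

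All 11 measured subunits of eIF3, the largest initiation factor, lay between 6.02 and 396 FPKM, with a median of 94.2 FPKM. Among the subunits of its octamer-shaped core, EIF3K stood at 336 FPKM, EIF3H at 184 FPKM, EIF3L at 158 FPKM, EIF3E at 94.2 FPKM, EIF3A at 73.2 FPKM and EIF3F at 28.3 FPKM. The module formed by subunits b, g and i, which sits near the messenger RNA channel, was uneven. By highest rows EIF3I was the top subunit of the complex at 396 FPKM, but with rows summed EIF3K, of the core, was above it at 511 against 396 FPKM. EIF3G stood at 63.3 FPKM. EIF3B was the lowest measured subunit by either value, at 6.02 FPKM, so that EIF3I was 65.8 times EIF3B although their proteins bind each other. The loosely attached subunit gene EIF3J was at 244 FPKM, and EIF3D, whose product can itself bind certain capped messages, at 29.2 FPKM. EIF3C and EIF3M were not analysed here.

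The eIF4 group spanned the widest range of the initiation factors, from 0.528 to 461 FPKM, or 873-fold. Its top members were helicases. EIF4A1, the main helicase that unwinds leaders, stood at 461 FPKM, its paralogue EIF4A2 at 295 FPKM, and EIF4A3, a related helicase that marks exon junctions, at 268 FPKM. Here the choice of row decided the order: with rows summed, EIF4A2 reached 600 FPKM and EIF4A1 547 FPKM, and the ratio of EIF4A1 to EIF4A2 turned from 1.56 to 0.911. EIF4A1 and EIF4A2 encode closely related proteins, and any sharing of reads between the 2 genes was not tested. EIF4H, a helicase cofactor, was at 113 FPKM. EIF4B was not analysed here.

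Of the cap-binding proteins, EIF4E, which recruits capped messages to the ribosome, stood at 69.0 FPKM. EIF4E2, a cap-binding relative known as a repressor when paired with GIGYF2, was at 77.7 FPKM, a ratio to EIF4E of 1.13, or 1.32 with rows summed. EIF4E1B, the form known from oocytes, was at 4.91 FPKM, and EIF4E3 at 1.30 FPKM. The level of EIF4E was thus 14.0 times that of EIF4E1B and 53.1 times that of EIF4E3. The scaffold that ties EIF4E to the helicase was lower: EIF4G1 stood at 17.1 FPKM and its paralogue EIF4G3 at 0.528 FPKM. EIF4A1 exceeded EIF4G1 by a factor of 26.9, or 16.9 with rows summed. EIF4G2 was not analysed here.

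The inhibitors of EIF4E differed in level. EIF4EBP1, a small protein that blocks EIF4E until mTOR phosphorylates it, stood at 23.9 FPKM. EIF4EBP2 was at 5.50 FPKM and EIF4EBP3 at 1.39 FPKM, each with 1 row, so that the first exceeded the last by a factor of 17.2. EIF4ENIF1, which shuttles EIF4E to the nucleus and to storage granules, was at 8.07 FPKM. EIF4E itself was 2.88 times EIF4EBP1.

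In the eIF5 group, EIF5B, the GTPase of subunit joining, stood at 73.6 FPKM. EIF5A2, a paralogue of the hypusine-bearing elongation helper EIF5A, was at 17.3 FPKM, or 27.9 FPKM with its 4 rows summed. EIF5, EIF5A and EIF6 were not analysed here.

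Of the elongation factor subunits 3 of 4 were high. EEF1B2 and EEF1D, exchange subunits that recharge eEF1A with GTP, stood at 227 and 157 FPKM, and the translocase gene EEF2 at 180 FPKM. EEF1A2, the eEF1A form known from adult muscle and neurons, was the lowest member of all at 0.177 FPKM. EEF1B2 exceeded EEF1A2 by a factor of 1286. EEF1A1, the widespread form, and EEF1G were not analysed here, so the level of eEF1A as a whole is not given by these values.

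Enzymes that modify elongation factors were lower. EEF2K, the kinase that inhibits eEF2, was at 0.666 FPKM, and EEF2 was 270 times as high. EEF1AKMT1, a lysine methyltransferase of eEF1A, stood at 30.0 FPKM, while EEF1AKMT3, another, was at 0.506 FPKM. EEF1AKNMT, which methylates both the first residue and a lysine of eEF1A, was at 8.17 FPKM. Across the members, the 11 kinases, methyltransferases and eIF4E-binding proteins had a median of 5.50 FPKM and none at 100 FPKM. The remaining 41 genes had a median of 95.5 FPKM, with 20 at 100 FPKM or more.

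Both release factor genes were nearly equal in level. ETF1, which reads the stop codon, stood at 110 FPKM and GSPT1, its GTPase partner, at 108 FPKM, a ratio of 1.02. GSPT2, an intron-poor relative of GSPT1, was at 0.513 FPKM.

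Levels of the members were set beside those of 3 other sets of the translation apparatus. The 48 cytosolic ribosomal protein genes, paralogue copies included, had a median of 777 FPKM, the 63 mitochondrial ribosomal protein genes 44.5 FPKM and the 17 cytosolic aminoacyl-tRNA synthetase genes 18.0 FPKM. The members, at 66.2 FPKM, lay between the first set and the others. Together they took 2.27% of the FPKM total, or 2.58% with all rows summed, and 1.62% without EIF1. These shares cover the 52 genes the rule found and leave out the factors named above as not analysed here, EEF1A1, EEF1G, EIF5 and EIF5A among them. The ribosomal protein genes took 14.7%. At 1 FPKM or more stood 46 of the 48, 61 of the 63 and 17 of the 17 genes of these sets. Of all genes, 48.8% did.

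**Figure D2:**
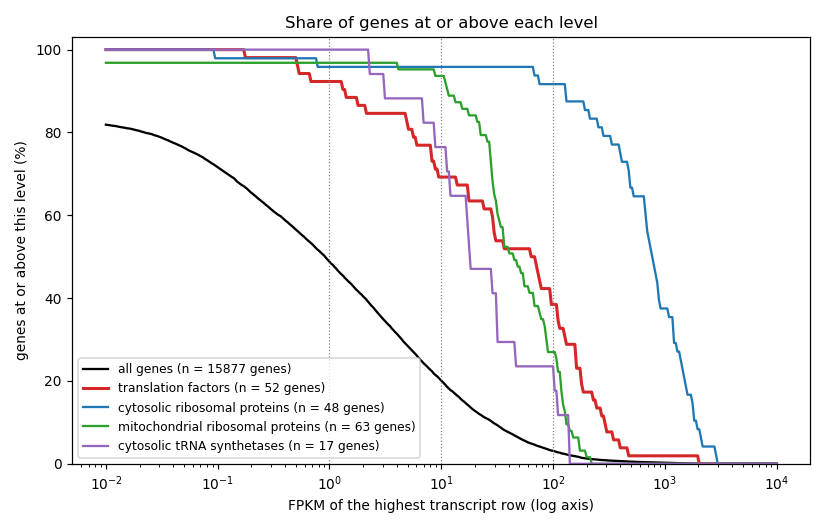
Percentage of genes (vertical axis) whose highest transcript row is at or above a given FPKM (horizontal log axis), for all 15877 genes, the 52 translation factors and 3 other sets. At 100 FPKM the curve of the translation factors is at 38.5% and that of all genes at 3.14%.

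Transcript rows showed how far each level rested on 1 annotated isoform. Of the 130 member rows 79 (60.8%) were at 1 FPKM or more, against 30.3% of all rows of the table, and 11 (8.46%) were under 1e-06 FPKM, against 29.4%. A lone row was listed for 21 members, a count that was not taken over all genes. For the 28 members with several rows and a level of 1 FPKM or more, the highest row held a median of 85.3% of the sum. The same median over 4927 such genes of the table was 82.0%.

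In 13 of the 31 members with several rows the second row reached 25% or more of the highest. The same count was not taken over all genes, so it does not set these members apart. EIF2D was the closest tie, at 98.0%. EIF3H followed with rows of 184 and 154 FPKM (84.0%), and EIF4A2 with 295 and 246 FPKM (83.3%). EIF3K had 3 rows, at 336, 130 and 45.5 FPKM, which summed to 511 FPKM. EEF2 had 180 and 70.9 FPKM and summed to 251 FPKM. EIF2B4 (8.70 and 5.62 FPKM) and EIF2B5 (9.44 and 5.97 FPKM) were divided in like proportion. EIF4G1 was spread over 10 rows, 5 of them at 1 FPKM or more, and summed to 32.3 FPKM. The rows of EIF4G3 were all below 1 FPKM but summed to 1.30 FPKM, the only member to cross the threshold by summing. Transcript models and lengths were not used here, so what distinguishes these isoforms was not examined.

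**Figure D3:**
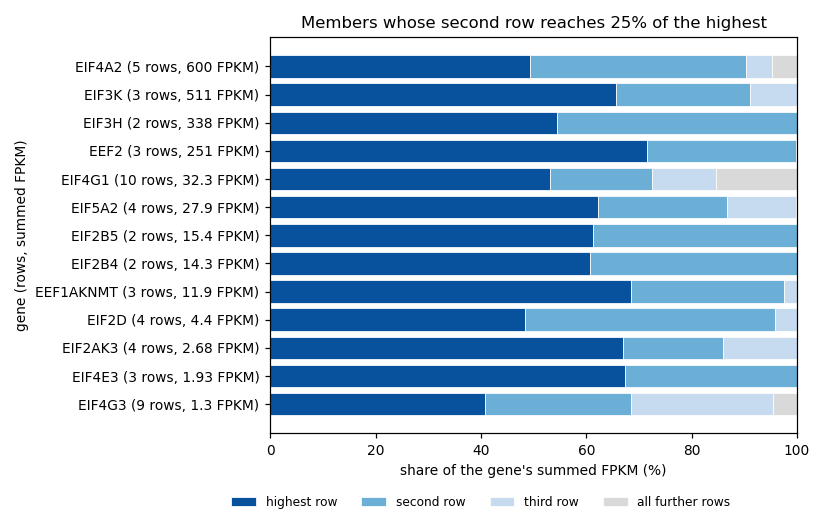
Share of each gene's summed FPKM (horizontal axis, percent) held by its highest, its next and its remaining transcript rows, for the 13 members whose second row reaches 25% of the highest, ordered by summed FPKM. EIF4A2, EIF2D and EIF4G3 have under 50% of their sum in the highest row.

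Other genes of translation control were taken from lists of 46 genes, 40 of which have a row, and 33 of these stood at 1 FPKM or more. That level was reached by 48.8% of all genes in the table. The separate lists are small, so their counts stand as values only. The eIF2 phosphatase subunit genes, which reverse the action of the kinases, were both expressed, PPP1R15A (GADD34) at 19.1 FPKM and PPP1R15B at 7.22 FPKM. Of 6 poly(A)-binding protein and PAIP genes 4 reached 1 FPKM. PAIP2, an inhibitor of the poly(A)-binding protein, was highest at 210 FPKM, above PABPC1 at 78.6 FPKM and its activator PAIP1 at 41.4 FPKM. PABPC1L, known from oocytes, was lowest at 0.321 FPKM.

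Of 8 genes of the mTOR pathway and of eIF4E and helicase control 6 were at 1 FPKM or more, against 48.8% of all genes. MLST8, a shared subunit of mTOR complexes, stood at 227 FPKM, whereas the kinase gene MTOR was at 0.793 FPKM and RPTOR, which recruits the substrates EIF4EBP1 and S6 kinase, at 1.25 FPKM. The S6 kinase genes RPS6KB1 and RPS6KB2 were at 12.1 and 0.0620 FPKM. The eIF4E kinase genes MKNK1 and MKNK2 were at 3.58 and 6.24 FPKM (5.99 and 7.36 FPKM summed), and PDCD4, an inhibitor of the EIF4A1 helicase, at 16.7 FPKM, or 34.9 FPKM with rows summed. Of 5 translational repressors on a further list, 4 were at 1 FPKM or more and none at 10 FPKM. Of all genes, 20.2% reached 10 FPKM. Outside this list, inhibitors lay on both sides of 10 FPKM. PAIP2, EIF4E2, EIF4EBP1 and PDCD4 were above it, and EIF4ENIF1, EIF4EBP2 and EIF4EBP3 below it. The highest of the list was GIGYF2, the partner of EIF4E2, at 6.65 FPKM, which put EIF4E2 at 11.7 times its partner. The lowest was GIGYF1 at 0.344 FPKM.

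The list of ribosome recycling, rescue and reinitiation genes also held TPT1 and GSPT2. At 1 FPKM or more stood 4 of its 5 genes, against 48.8% of all genes. TPT1, a translationally controlled tumour protein known to bind eEF1 subunits, stood at 1641 FPKM. ABCE1, which splits ribosomes after release, was at 93.1 FPKM, and the rescue pair PELO and HBS1L at 50.8 and 34.8 FPKM. With its 6 rows summed HBS1L came to 75.6 FPKM, above PELO, whose lone row leaves it at 50.8 FPKM. The lowest was GSPT2. DOHH, which completes hypusine on eIF5A proteins, was at 19.0 FPKM, and its partner DHPS was not analysed here.

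**Figure D4:**
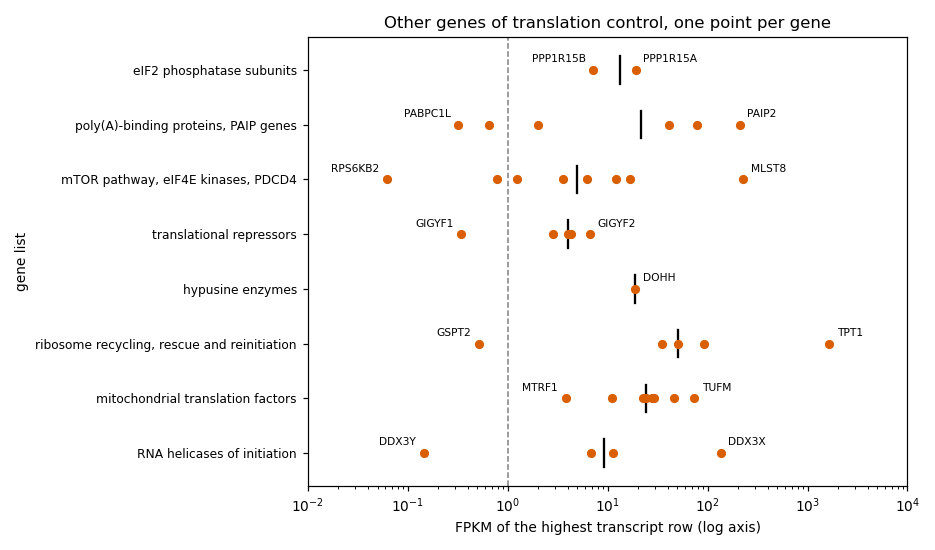
FPKM of the highest transcript row (log axis) for 40 other genes of translation control, with each point a gene, each black bar the median of its list and the lowest and highest gene of each list named. MLST8, PAIP2, DDX3X and TPT1 lie above 100 FPKM, and the dashed line marks 1 FPKM.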

How the data were processed

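RNA of the pig morulae was sequenced from Smart-seq2 libraries, per the labels' protocols. The authors deposited FPKM values per Ensembl transcript, 37571 rows in 1 column, per the file headers, with 4 replicates merged, as the name of the table says. Neither the labels nor the headers say whether reads or values were merged. Among other tools, the submitters' processing notes name TopHat2 2.1.1 and Cufflinks 2.2.1, and the build susScr11 among others, without roles. Some 4534 rows lay above 0 and under 1e-06 FPKM, a sign of a fitted assignment of reads, so whole reads were not recovered. A wrong transcript length or a misassigned read shifts a level.

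With Python 3.11.15, pandas 2.3.3 and numpy 2.4.6, a gene's level was its highest row and a gene counted as expressed at 1 FPKM. The steps were tested on a simulated table. Differences of medians were taken on log2(FPKM + 1). No replicate spread exists, so no test was made. Every member could be named, with transcript rows where the second reached 25% of the highest, and others from the lists with their highest and lowest genes. Further list genes were named for their role beside a member. Members and lists were chosen with earlier results of these data known. Alternatives were summed rows, the mean of rows, scaling to TPM, thresholds of 0.5 and 5 FPKM, a filter at 0.1 FPKM, leaving out the closing run of zeros, and a pseudocount of 0.1. Values within 1.5 times of each other were taken as unchanged. No sequences are shown, since none of the pig were used here.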

Additional observations from a re-analysis of the deposited data

How the results depend on the processing

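The count of 48 members at 1 FPKM or more moved between 42 (5 FPKM) and 51 (0.5 FPKM, or TPM scaling) over its 7 alternatives. Summing rows added EIF4G3 (49), and the mean of rows dropped EIF2AK3 and EIF4E3 (46). Scaling to TPM multiplies each level by 3.28 and changes no ratio. It gave medians of 757 for eIF1, 421 for eIF2, 16.4 for the eIF2 kinases, 63.2 for eIF2B, 309 for eIF3, 67.3 for eIF4, 553 for eEF and 14.5 for the eEF modifiers. The mean of rows, which counts unused isoforms, lowered the medians to 64.3 FPKM for eIF2, 1.62 for the kinases, 12.2 for eIF2B, 11.9 for eIF4, 61.5 for eEF and 2.24 for the eEF modifiers. The difference between eEF and its modifiers, 5.43 on the log2 scale, became 4.42 with the mean of rows and 6.06 with a pseudocount of 0.1. With the mean of rows the order of medians turned for eIF2 and eIF3, eIF2 and eEF, and eIF3 and eEF. It also turned for eIF2B and eIF4, and for the eIF2 kinases and the eEF modifiers. Summed rows moved none of the 14 results by over 1.5 times. The members' share of the total was 1.62% without EIF1, an alternative chosen after seeing the data. Leaving out a replicate was not run, since the 4 libraries share 1 column. No paired analysis was possible because the merged column carries no replicate numbers. The depth is unknown, so low levels such as those of EEF1A2 and EEF1AKMT3 have no known precision.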

Other observations

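Of the list of factors that serve mitochondrial ribosomes, 9 of 9 genes stood at 1 FPKM or more, against 48.8% of all genes. Their median was 24.4 FPKM. The elongation factor gene TUFM stood at 73.3 FPKM and its exchange factor gene TSFM at 46.4 FPKM. The initiation factor genes MTIF2 and MTIF3 were at 24.4 and 22.6 FPKM, and the elongation factor genes GFM1 and GFM2 at 23.5 and 11.1 FPKM. Of the genes that end translation, MTRF1L was at 28.9 FPKM, the recycling factor gene MRRF at 27.8 FPKM and MTRF1 lowest at 3.81 FPKM. The range over these 9 genes was 19.2-fold, or 8.34-fold with rows summed, where MTRF1 came to 8.79 FPKM.

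Among RNA helicases of initiation, DDX3X stood at 135 FPKM, DHX9 at 11.4 FPKM (21.6 FPKM summed) and DHX29, which helps ribosomes through structured leaders, at 6.80 FPKM (12.5 FPKM summed). DDX3Y, the Y-linked counterpart of DDX3X, was listed at 0.144 FPKM, and DDX3X was 938 times as high. Chromosomes all of maternal origin would include no Y chromosome, but no link between this and the DDX3Y level was tested. The assignment of reads shared by DDX3X and DDX3Y was not tested either.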
